A study of Mus musculus with 12 samples.

Results

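The genes described here encode NADPH oxidases and the proteins that build or switch on these enzymes: Duox1, its maturation factor Duoxa1, Nox4, Cybb, Cyba, Ncf1, Ncf4 and Rac2. They were taken by name, 8 of the 46983 genes in the count files, and all 8 had enough reads to be tested. The set was chosen by its measured levels in the 4 groups of these samples as well as by family. Duoxa1, Duox1, Ncf1 and Ncf4 stand on the study's own lists of changed genes, so their values are given as a description and not as a test.

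RNA of the left ventricle (LV) of 12-week-old mice was counted by 3′-seq, which reads the end of each transcript, in 12 libraries of 1 animal each. The dams were Wt females of the FVB strain, pregnant for the first time. They were either non-diabetic or made diabetic with streptozotocin (STZ) before mating, and the sires were heterozygous for the Hif1a tm1jhu null allele on an FVB background, a deletion not limited to any cell type. The 4 groups of 3 offspring were therefore Wt and Hif1a+/- from non-diabetic pregnancy, and Wt and Hif1a+/- from diabetic pregnancy. Samples of a group came from several litters.

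NADPH oxidases carry electrons from NADPH across a membrane to oxygen and so make superoxide or hydrogen peroxide on purpose. Cybb (also NOX2) is the catalytic subunit of phagocytes and works with the partner Cyba and cytosolic subunits, Ncf1 and Ncf4 among them, and a Rac GTPase, whereas Nox4 needs Cyba alone and is active without these cytosolic subunits. Duox1 is a dual oxidase that releases hydrogen peroxide, is switched on by calcium and leaves the endoplasmic reticulum only with Duoxa1.

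The libraries held 16132442 to 39812939 counts. Cardiomyocyte markers summed to between 63420 and 72450 CPM in every library, where CPM is a gene's count per 1000000 counts of a library whose size was scaled by TMM, edgeR's correction for composition. Hif1a itself was counted at 55.7, 57.0 and 71.8 CPM in Wt and at 89.4, 78.8 and 89.0 CPM in Hif1a+/- from non-diabetic pregnancy, and at 47.9, 59.3 and 58.6 CPM in Wt and 70.5, 64.8 and 81.5 CPM in Hif1a+/- from diabetic pregnancy. Within each kind of pregnancy it was thus higher, not lower, in the Hif1a+/- libraries. The sources used here do not say whether the null allele still makes a 3′ end, so these reads do not check the genotype, which is taken as labelled. All animals are labelled female, whereas the study describes male offspring. In 11 libraries 4 Y-linked genes were counted throughout and Xist had at most 176 counts, which goes against the female label. In the diabetic Hif1a+/- library of animal 72 Xist had 3599 counts and the 4 Y-linked genes 10 or fewer each. By these genes only the diabetes-exposed Hif1a+/- group mixed the sexes, so results are also given without animal 72.

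Duoxa1 and Duox1 lie head to head on chromosome 2. In GRCm38, with the GENCODE annotation, Duoxa1 (ENSMUSG00000027224) spans chr2:122302191-122313730 on the minus strand and Duox1 (ENSMUSG00000033268) spans chr2:122315672-122347972 on the plus strand, with 1941 bases between their starts. Because these neighbours were highest in the same group, the 250 bases before each RefSeq start are shown, both from GRCm38.p6 and written 5′ to 3′ along the gene's own strand (Duoxa1 chr2:122313731-122313980, minus strand; Duox1 chr2:122315422-122315671, plus strand). Capitals mark ACGTG or GCGTG, the core letters bound by HIF, and GAGGAA, the core letters of the myeloid factor PU.1, searched on both strands.
Duoxa1: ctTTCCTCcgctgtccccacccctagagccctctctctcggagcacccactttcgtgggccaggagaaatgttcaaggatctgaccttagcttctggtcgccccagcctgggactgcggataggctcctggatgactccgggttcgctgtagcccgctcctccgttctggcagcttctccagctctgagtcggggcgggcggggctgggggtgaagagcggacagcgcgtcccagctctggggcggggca
Duox1: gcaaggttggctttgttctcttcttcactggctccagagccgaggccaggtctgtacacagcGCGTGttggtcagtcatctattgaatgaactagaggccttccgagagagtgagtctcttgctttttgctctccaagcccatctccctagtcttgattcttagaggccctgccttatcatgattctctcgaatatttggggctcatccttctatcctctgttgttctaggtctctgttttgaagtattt

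The Duoxa1 window held no HIF core and 1 GAGGAA, read on the opposite strand, whose first printed base lies 248 bases before the start. The Duox1 window held 1 GCGTG, 188 bases before the start, and no other match. Over 27025 RefSeq promoters cut to the same length, 38.6% held at least 1 of the HIF cores and 23.1% held GAGGAA, so such matches are common. The windows of Nox4, Cybb, Cyba and Ncf1 held none of these letters in this form. Ncf4 and Rac2 had no entry in the promoter table. GC content was 65.6% for Duoxa1 and 47.6% for Duox1.

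**Figure D1:**
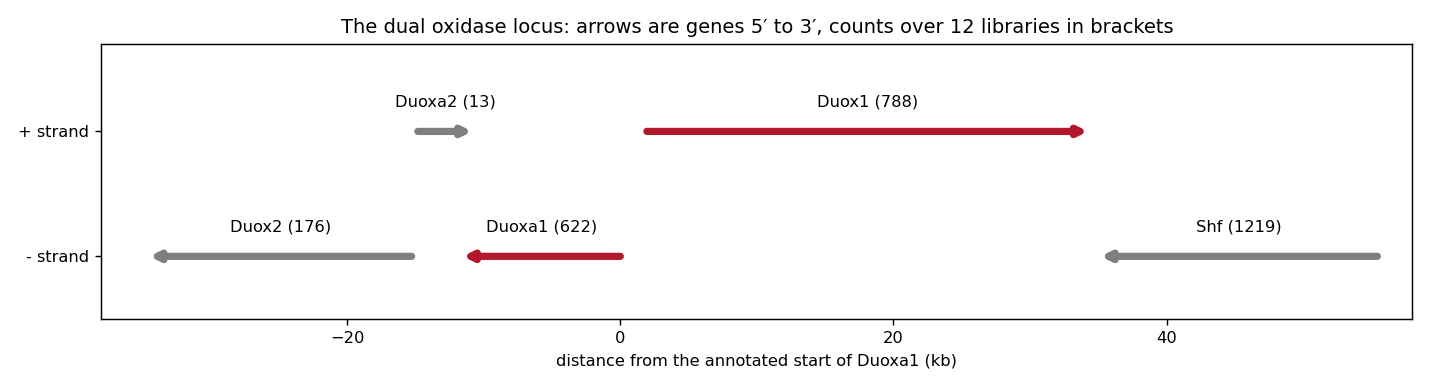
The dual oxidase locus, drawn to scale as distance in kb from the annotated start of Duoxa1, with genes of the plus strand above and of the minus strand below. Numbers in brackets are counts summed over 12 libraries, and Duox1 (788) and Duoxa1 (622) far exceed the other pair, Duox2 (176) and Duoxa2 (13).

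Duox1, the catalytic member of the pair, was higher in every diabetes-exposed Hif1a+/- LV than in every other LV. Its CPM was 2.12, 1.96 and 2.66 in Wt from non-diabetic pregnancy (34, 43 and 65 counts in animals 25, 42 and 89) and 1.43, 1.98 and 1.83 in Wt from diabetic pregnancy (31, 58 and 32 counts in animals 50, 7 and 80). It was 1.87, 1.80 and 2.06 in Hif1a+/- from non-diabetic pregnancy (48, 32 and 41 counts in animals 14, 32 and 44) and 4.01, 4.01 and 6.94 in diabetes-exposed Hif1a+/- (156, 91 and 157 counts in animals 66, 72 and 77). The first 3 groups overlapped in the order Wt diabetic, Hif1a+/- non-diabetic, Wt non-diabetic, and the fourth stood apart from them, with animal 77 highest.

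On the log2 scale of the edgeR fit, Duox1 in diabetes-exposed Hif1a+/- differed by 1.37 ± 0.24 (SE) from Hif1a+/- of non-diabetic pregnancy, by 1.50 ± 0.24 from Wt of diabetic pregnancy and by 1.14 ± 0.24 from Wt of non-diabetic pregnancy, folds of 2.59, 2.83 and 2.20. In Wt the difference between pregnancies was of the opposite sign, -0.36 ± 0.26, with overlapping samples. The diabetic difference in Hif1a+/- minus that in Wt was 1.74 ± 0.35. Leaving out each animal in turn kept Duox1 between 1.07 and 1.51 against Hif1a+/- of non-diabetic pregnancy, and without animal 72 it was 1.51.

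Duoxa1, the maturation factor, was likewise highest in the diabetes-exposed Hif1a+/- LVs, but these 3 animals varied more. Its CPM was 1.06, 1.41 and 1.31 in Wt from non-diabetic pregnancy (17, 31 and 32 counts) and 1.71, 1.09 and 1.83 in Wt from diabetic pregnancy (37, 32 and 32 counts). It was 1.71, 1.75 and 1.51 in Hif1a+/- from non-diabetic pregnancy (44, 31 and 30 counts) and 3.44, 2.29 and 6.63 in diabetes-exposed Hif1a+/- (134, 52 and 150 counts). All 3 of the last group exceeded the other 9, with animal 77 highest and animal 72 lowest. Among the other groups only Hif1a+/- and Wt of non-diabetic pregnancy did not overlap.

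The log2 difference of Duoxa1 was 1.30 ± 0.34 (SE) against Hif1a+/- of non-diabetic pregnancy, 1.43 ± 0.34 against Wt of diabetic pregnancy and 1.69 ± 0.35 against Wt of non-diabetic pregnancy. In Wt the pregnancies differed by 0.26 ± 0.37, and the difference between the genotypes' differences was 1.05 ± 0.50. Duoxa1 rested on animal 77 more than Duox1 did: without it the 3 values were 0.80, 0.93 and 1.19, and without animal 72 they were 1.59, 1.71 and 1.97. Reads do not tell overlapping genes apart without strand, whose use in counting is not given in the sources used here, and the 3′ end of Duoxa1 overlaps that of Duoxa2 by 695 bases. Duoxa2 had 13 counts in all 12 libraries together. Shf, whose 3′ end lies 919 bases beyond that of Duox1 on the other strand, averaged 4.27, 4.21, 4.97 and 4.31 CPM in Wt non-diabetic, Wt diabetic, Hif1a+/- non-diabetic and Hif1a+/- diabetic LVs, without the step seen in Duox1.

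Outside the diabetes-exposed Hif1a+/- group the pair did not move together. Over the other 9 libraries, which share one sequencing experiment and hold 3 groups, the log2 CPM of Duoxa1 and Duox1 had a Pearson r of -0.552 and a Spearman rho of -0.767, given as a description at 17 to 65 counts per value. Over all 12 libraries, with the diabetes-exposed Hif1a+/- group included, the Pearson r was 0.841. It was 0.59 after each group's mean was subtracted. Within the diabetes-exposed Hif1a+/- animals, 77 was highest and 72 lowest for both genes, although for Duox1 animals 66 and 72 were at the same level. The genes outside the members whose log2 CPM followed Duoxa1 most closely over the 12 libraries were Selp (r = 0.931), Dact2 (0.929) and Emilin2 (0.908). Those closest to Duox1 were Pi16 (0.944), Fstl1 (0.939) and Cd248 (0.937). Pi16 averaged 61.0, 60.6 and 57.6 CPM in the first 3 groups and 168 CPM in diabetes-exposed Hif1a+/-. These correlations run across all 4 groups, so the high diabetes-exposed Hif1a+/- libraries weigh in them.

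**Figure D2:**
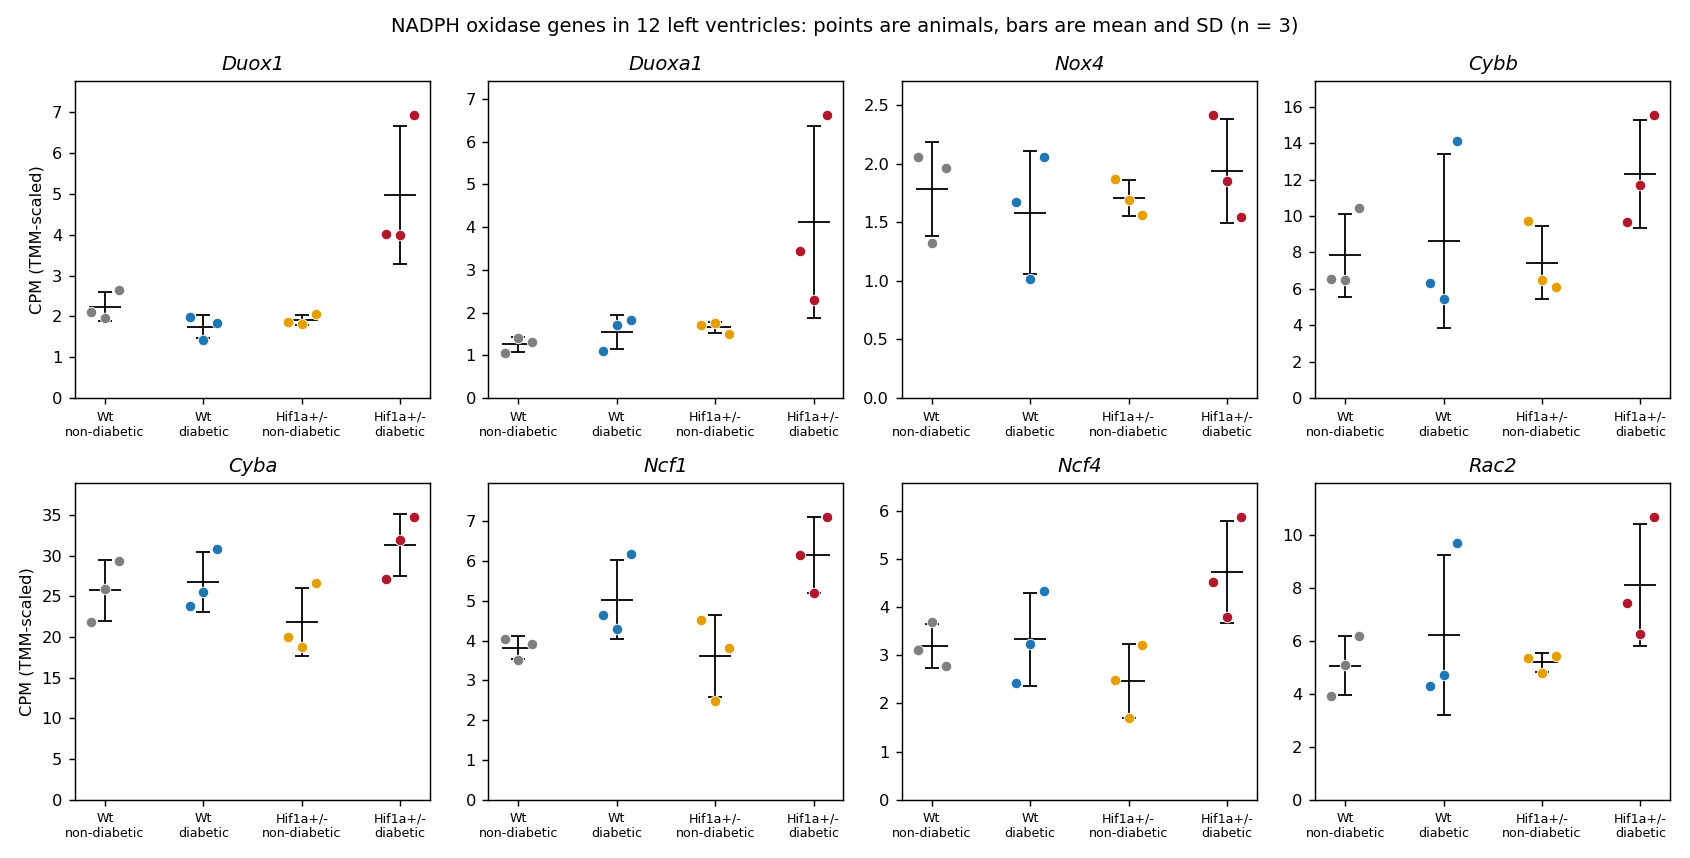
CPM (TMM-scaled, linear axis from 0) of the 8 genes in each of the 12 LVs by group; points are animals, and the bars are the mean and SD of 3. For Duox1 and Duoxa1 all 3 diabetes-exposed Hif1a+/- points lie above all others, and for Nox4 the 4 groups overlap.

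Nox4, the constitutively active oxidase of cardiac and vascular cells (ENSMUSG00000030562, chr7:87246096-87398710, plus strand), was low in all groups and its groups were not separated. Its CPM ran from 1.32 to 2.06 in Wt and from 1.56 to 1.87 in Hif1a+/- of non-diabetic pregnancy, from 1.02 to 2.06 in Wt of diabetic pregnancy and from 1.55 to 2.41 in diabetes-exposed Hif1a+/-, on 22 to 94 counts. All groups overlapped, and the means of 1.58 to 1.94 CPM differed by less than the largest SD, 0.53. Its log2 differences were -0.17 ± 0.28 (SE) for diabetic against non-diabetic pregnancy in Wt and 0.19 ± 0.27 in Hif1a+/-.

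Cybb, the phagocyte catalytic subunit (ENSMUSG00000015340, chrX:9435252-9487771, minus strand), had the highest mean in diabetes-exposed Hif1a+/- but every group overlapped the next. The animals had 6.54, 6.50 and 10.5 CPM in Wt and 9.74, 6.48 and 6.08 CPM in Hif1a+/- of non-diabetic pregnancy, against 5.44, 6.30 and 14.1 CPM in Wt and 9.68, 11.7 and 15.6 CPM in Hif1a+/- of diabetic pregnancy. Animal 80 of the diabetic Wt group lay between animals 72 and 77 of diabetes-exposed Hif1a+/-, well above the other diabetic Wt animals. Diabetes-exposed Hif1a+/- differed by 0.71 ± 0.33 (SE) in log2 from Hif1a+/- of non-diabetic pregnancy and by 0.53 ± 0.33 from diabetic Wt, and by 0.75 and 0.56 without animal 72. Within Wt the difference between pregnancies was 0.11 ± 0.34, and it was -0.42 without animal 80.

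Cyba, the membrane partner that Cybb and Nox4 share (ENSMUSG00000006519, chr8:122424776-122432930, minus strand), ran from 18.8 to 34.8 CPM. It was 21.9, 26.0 and 29.4 CPM in Wt and 20.1, 18.8 and 26.7 CPM in Hif1a+/- of non-diabetic pregnancy, and 25.6, 23.8 and 30.9 CPM in Wt and 27.2, 32.0 and 34.8 CPM in Hif1a+/- of diabetic pregnancy. The 2 Hif1a+/- groups did not overlap, while both Wt groups reached into the diabetes-exposed Hif1a+/- range. The log2 difference between the Hif1a+/- groups was 0.52 ± 0.15 (SE), a fold of 1.43, beside 0.05 ± 0.15 between the Wt groups. Mvd, a gene of sterol synthesis 670 bases beyond the start of Cyba on the same strand, averaged 6.16, 6.59, 6.04 and 7.58 CPM in Wt non-diabetic, Wt diabetic, Hif1a+/- non-diabetic and Hif1a+/- diabetic LVs, and was also the third gene by likeness to Cybb (r = 0.954).

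Ncf1 (p47phox), the organizer that joins the cytosolic subunits to the membrane (ENSMUSG00000015950, chr5:134220053-134229625, minus strand), was higher in each diabetic group than in the non-diabetic group of the same genotype. It was 4.05, 3.50 and 3.92 CPM in Wt and 4.52, 2.48 and 3.82 CPM in Hif1a+/- of non-diabetic pregnancy, and 4.29, 4.63 and 6.17 CPM in Wt and 6.14, 5.19 and 7.11 CPM in Hif1a+/- of diabetic pregnancy. The 2 Wt groups did not overlap and nor did the 2 Hif1a+/- groups, while the 2 diabetic groups overlapped. The log2 difference between pregnancies was 0.39 ± 0.22 (SE) in Wt and 0.75 ± 0.21 in Hif1a+/-, and the difference of these, 0.37 ± 0.31, was little more than its error. Ncf1 overlaps Gtf2ird2 on the other strand by 4303 bases. Gtf2ird2 averaged 11.1, 11.6, 11.3 and 10.5 CPM in Wt non-diabetic, Wt diabetic, Hif1a+/- non-diabetic and Hif1a+/- diabetic LVs, against the direction of Ncf1 in diabetes-exposed Hif1a+/-.

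Ncf4 (p40phox), which binds membrane phosphoinositides (ENSMUSG00000071715, chr15:78244801-78262580, plus strand), was lowest in Hif1a+/- of non-diabetic pregnancy at 2.49, 1.69 and 3.22 CPM, beside 3.11, 3.68 and 2.78 CPM in Wt. From diabetic pregnancy it was 3.23, 2.42 and 4.34 CPM in Wt and 4.52, 3.79 and 5.88 CPM in Hif1a+/-. Diabetes-exposed Hif1a+/- lay above both non-diabetic groups and overlapped diabetic Wt. The log2 difference between the Hif1a+/- groups was 0.93 ± 0.26 (SE), the largest after those of Duox1 and Duoxa1, and between the Wt groups 0.04 ± 0.27.

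Rac2, the Rac GTPase of blood cells (ENSMUSG00000033220, chr15:78559167-78572783, minus strand), was 3.92, 5.09 and 6.17 CPM in Wt and 5.34, 4.79 and 5.43 CPM in Hif1a+/- of non-diabetic pregnancy. From diabetic pregnancy it was 4.71, 4.29 and 9.71 CPM in Wt and 7.42, 6.25 and 10.7 CPM in Hif1a+/-. As for Cybb, animal 80 was far above the other 2 diabetic Wt animals and within the range of diabetes-exposed Hif1a+/-, which lay just above Wt of non-diabetic pregnancy. The log2 difference between pregnancies was 0.64 ± 0.29 (SE) in Hif1a+/- and 0.27 ± 0.30 in Wt, and the latter was -0.19 without animal 80.

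The genes most alike in pattern to the phagocyte members over 12 libraries were Timd4 for Rac2 (r = 0.985), Siglec1 and Tlr13 for Ncf1 (both 0.963), Clec10a for Cybb (0.960) and Kcnab2 for Ncf4 (0.954). Timd4, Siglec1 and Clec10a encode surface receptors of macrophages. The other genes among the 3 closest, not sorted by cell type, were Fcgrt (0.964) and Gas6 (0.946) for Rac2 and Susd3 (0.946) for Ncf1. For Cybb they were Cyth4 (0.959) and Mvd (0.954), and for Ncf4 Cotl1 (0.907) and Dok2 (0.9). The closest for Cyba were Rad9a (0.925), Glmp (0.917) and Lgals1 (0.913), and for Nox4 Oma1 (0.884), Rogdi (0.86) and Ubox5 (0.854).

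Without animal 72, the log2 differences between the Hif1a+/- groups were 0.24 for Nox4, 0.51 for Cyba, 0.87 for Ncf1, 1.07 for Ncf4 and 0.80 for Rac2. Against diabetic Wt they were then 0.36, 0.22, 0.40, 0.65 and 0.55 for the same genes, and Duox1 was at 1.63. All kept their direction without this animal.

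**Figure D3:**
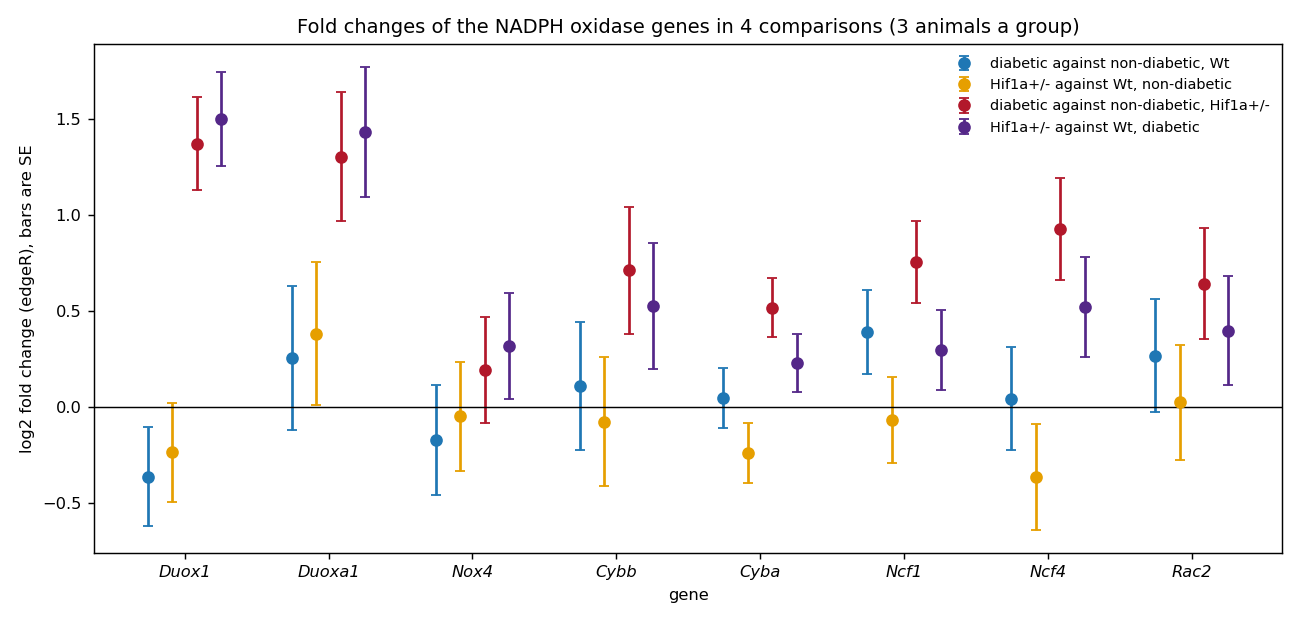
Log2 fold changes (edgeR) of the 8 genes in 4 comparisons, with bars of 1 SE. Red and purple points share the diabetes-exposed Hif1a+/- libraries and lie highest for Duox1 (1.37 and 1.50) and Duoxa1 (1.30 and 1.43), and blue and orange points, which share the Wt libraries of non-diabetic pregnancy, lie within 0.39 of 0.

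The calls depended on the tool. At an adjusted p under 0.1 edgeR's quasi-likelihood test called 0 of the 8 genes in each of 5 comparisons and in the interaction, as it called 0.0% of 14706 genes. Its smallest adjusted p among the 8 was 0.12 between the Hif1a+/- groups. For diabetes-exposed Hif1a+/- it was 0.31 against Wt of non-diabetic pregnancy and 0.24 against diabetic Wt. Over all tested genes the smallest were 0.12, 0.31 and 0.16 in the same order. At an unadjusted p under 0.05 edgeR counted 7 of 8 between the Hif1a+/- groups (all but Nox4; 12.0% of all genes), 5 of 8 for diabetes-exposed Hif1a+/- against Wt of non-diabetic pregnancy (Duox1, Duoxa1, Ncf1, Ncf4, Rac2; 8.85%) and 2 of 8 against diabetic Wt (Duox1, Duoxa1; 5.35%). It counted 3 in the interaction (Duox1, Cyba, Ncf4; 2.52%) and 0 for either single exposure, where 2.78% of genes passed for diabetic pregnancy in Wt and 0.959% for the genotype. DESeq2 on the same counts called 4 of 8 between the Hif1a+/- groups (Duox1, Duoxa1, Ncf1, Ncf4; 1.44% of the genes it tested) and Duox1 and Duoxa1 in the other 2 comparisons of diabetes-exposed Hif1a+/- (0.453% against Wt of non-diabetic pregnancy, 0.155% against diabetic Wt). It called 0 for diabetic pregnancy in Wt (0.0148% of genes; at an unadjusted p under 0.05, 0 of the 8 beside 1.44%), 0 for the genotype (0.00369%; 0 of the 8 beside 0.476%) and 0 in the interaction (0.0%; 3 of the 8 beside 1.4%). These contrasts were in view when the genes were chosen, so nothing is read from the counts against those shares. The 3 comparisons share the same diabetes-exposed libraries and are not independent.

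Counted by samples alone, diabetes-exposed Hif1a+/- lay wholly above Hif1a+/- of non-diabetic pregnancy for 6 of 8 genes (all but Nox4 and Cybb), beside 11.2% of all tested genes in that direction. It lay wholly above Wt of non-diabetic pregnancy for 5 genes (7.47% of all genes) and above diabetic Wt for 2 (4.32%). The single exposures separated 1 gene each, Ncf1 for diabetic pregnancy in Wt (2.14% higher over all genes) and Duoxa1 for the genotype (2.55%). The median log2 difference of the 8 genes was 0.73 between the Hif1a+/- groups and 0.08 between the Wt groups, beside -0.01 and 0.01 over all tested genes.

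Markers of immune cells were higher in the same libraries. In bulk tissue, more cells of a type and more RNA per cell cannot be told apart. The study itself counted infiltrating macrophages stained for F4/80 in the LV and found them increased only in diabetes-exposed Wt. It also reported less TNFR2 protein in diabetes-exposed Hif1a+/- LVs. These are a count of cells and a protein level, not RNA. The marker sums below do not show the same order of groups as the cell counts. The 8 macrophage markers (Adgre1, Csf1r, Cd68, C1qa, Fcgr1, Mrc1, Cd163 and Lyz2, none at 0) summed to 280 to 399 CPM in Wt and 212 to 319 CPM in Hif1a+/- of non-diabetic pregnancy, 287 to 466 CPM in Wt of diabetic pregnancy and 424 to 594 CPM in diabetes-exposed Hif1a+/-. Between the Hif1a+/- groups 7 of these 8 markers lay wholly higher (11.2% of all tested genes) and the mean sum was 1.86 times as high. The fitted folds of the same comparison were 1.69 for Ncf1, 1.64 for Cybb, 1.56 for Rac2, 1.90 for Ncf4, 2.59 for Duox1 and 2.47 for Duoxa1. Against Wt of non-diabetic pregnancy the macrophage sum was 1.61 times as high, and Ncf1 also 1.61, with Duox1 at 2.20 and Duoxa1 at 3.22. Animal 80, the high Wt animal for Cybb and Rac2, had the highest macrophage sum of its group, 466 CPM. It also had the highest fibroblast marker sum of all libraries, 1392 CPM. Its endothelial and smooth muscle marker sums, 680 and 176 CPM, were the lowest of all libraries. The part of macrophage RNA in the values of these genes was not tested.

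**Figure D4:**
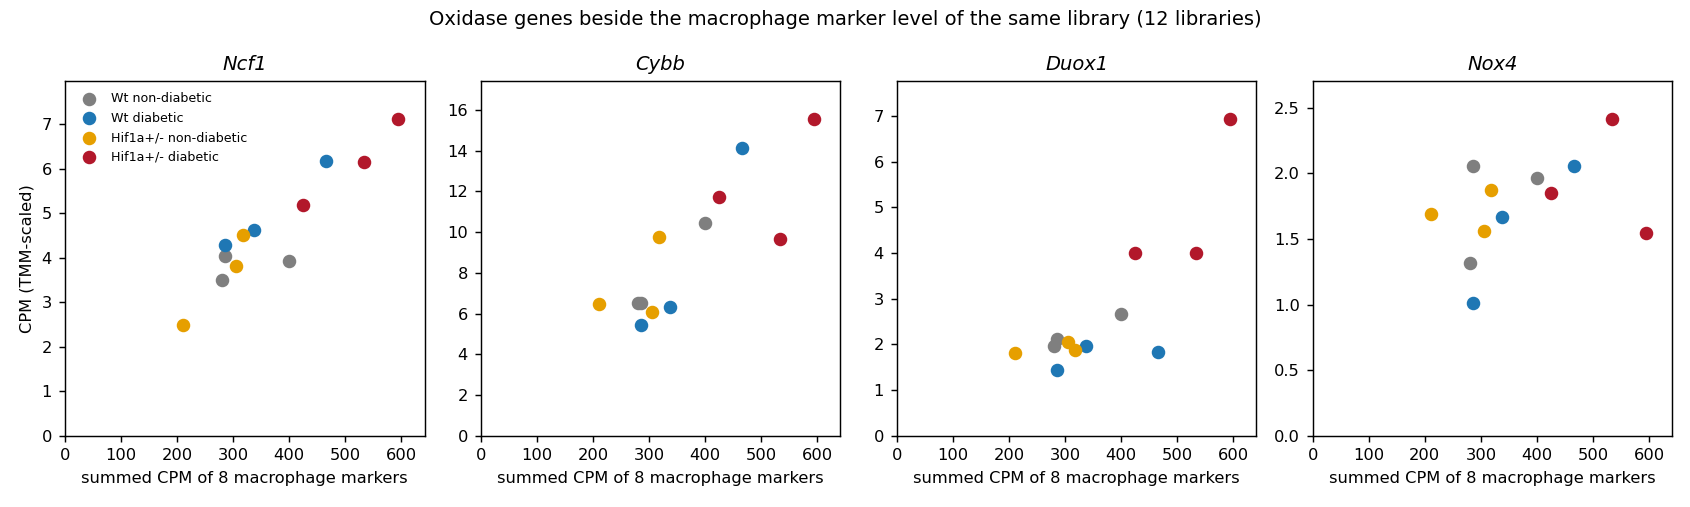
CPM of Ncf1, Cybb, Duox1 and Nox4 (linear axes from 0) against the summed CPM of 8 macrophage markers in the same library, 12 libraries coloured by group. Ncf1 and Cybb climb with the marker sum across groups, Duox1 is level until the diabetes-exposed Hif1a+/- libraries, and Nox4 is level throughout.

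The 4 general leukocyte markers summed to 32.3 to 51.0 CPM in the non-diabetic groups, 43.2 to 68.1 CPM in diabetic Wt and 63.3 to 97.0 CPM in diabetes-exposed Hif1a+/-. Of the 6 neutrophil markers 3 had too few counts to be tested, and the sum was 1.36 to 2.49 CPM in Hif1a+/- of non-diabetic pregnancy against 4.40 to 8.61 CPM in diabetes-exposed Hif1a+/-, with 19.6 CPM in 1 Wt animal of non-diabetic pregnancy. The 5 fibroblast markers were all fitted higher between the Hif1a+/- groups, with a median log2 difference of 0.35, although their sum of 894 to 1392 CPM overlapped in all 5 comparisons. Over the 12 libraries, whose groups and depth are shared by all genes, Cybb, Rac2 and Cyba followed the fibroblast sum (r = 0.849, 0.811 and 0.793) about as closely as the macrophage sum (0.830, 0.843 and 0.810). Ncf1 followed the macrophage sum more closely (0.927, beside 0.543), as did Ncf4 (0.816, beside 0.539), Duox1 (0.782, beside 0.465) and Duoxa1 (0.710, beside 0.432). Most of the fibroblast sum was Dcn, at 641.5 to 1045 CPM, the marker that differed least between the Hif1a+/- groups (0.16 in log2). Duox1 followed Pi16, Fstl1 and Cd248 (0.944, 0.939 and 0.937) more closely than either sum. Those genes were picked as its closest among all tested genes and were not sorted by cell type. These correlations are a description, and the part of fibroblast RNA was not tested. The 4 endothelial markers, at 680 to 986 CPM, overlapped in all 5 comparisons, as did the lymphocyte, smooth muscle and mesothelial or epithelial sums. Over the 12 libraries Cybb, Rac2 and Cyba nevertheless ran against the endothelial sum (r = -0.709, -0.736 and -0.663). They also ran against the smooth muscle sum (-0.81, -0.596 and -0.45). The remaining members had negative values with both sums, from -0.19 to -0.539, again as a description. The red cell sum reached 7057 CPM in 1 Wt library of non-diabetic pregnancy and was at most 1711 CPM elsewhere.

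Of the 11 other oxidase genes 6 could be tested. Nox1 (27 counts over 12 libraries), Nox3 (0), Noxo1 (85), Noxa1 (1) and Duoxa2 (13) were too low to be tested, and the 0 counts of Nox3 allow a level of up to 0.0108 CPM over all libraries, taking 3 counts as the limit and counting error alone. Duox2, the other dual oxidase, averaged 0.454, 0.568, 0.677 and 0.814 CPM in Wt non-diabetic, Wt diabetic, Hif1a+/- non-diabetic and Hif1a+/- diabetic LVs on 5 to 23 counts. Cybc1, the chaperone of Cybb and Cyba, ran from 13.1 to 18.9 CPM. Rac1, the Rac GTPase of most cells, and Poldip2, which binds the Nox4 complex, stayed within 174 to 190 CPM and 166 to 199 CPM over the 12 libraries.

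Neither edgeR nor DESeq2 called any of the tested ones at an adjusted p under 0.1. At an unadjusted p under 0.05 edgeR counted Rac3, a Rac GTPase best known from the nervous system, between the Hif1a+/- groups and in the interaction, and Duox2 against Wt of non-diabetic pregnancy. Rac3 differed by 0.70 ± 0.30 (SE) in log2 between the Hif1a+/- groups, whose samples overlapped. These genes were named after their values were seen.

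The 18 regulators, chosen with earlier results known, comprise Rac exchange factors, kinases of the cytosolic subunits and receptors that trigger the burst. EdgeR called 0 of them in any comparison, with 8 of 18 at an unadjusted p under 0.05 between the Hif1a+/- groups (12.0% of all genes), and DESeq2 called 2 there (1.44% of the genes it tested), both higher: Itgam, a subunit of the leukocyte integrin that primes the oxidase, and Vav1, an exchange factor for Rac. Itgam averaged 1.23 ± 0.27 and 2.98 ± 0.43 CPM (SD, n = 3) in the 2 Hif1a+/- groups, a log2 difference of 1.29 ± 0.27 (SE; edgeR adjusted p = 0.18). Vav1 averaged 1.86 ± 0.49 and 4.14 ± 0.86 CPM, a log2 difference of 1.13 ± 0.30 (SE; edgeR adjusted p = 0.26). At the ends of the list were S100a8, with a log2 difference of 2.90 ± 1.01 (SE) on 2 to 69 counts in those groups, and Tlr4, with -0.35 ± 0.23. The list's median was 0.31 between the Hif1a+/- groups and 0.03 between the Wt groups.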

How the data were processed

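The authors extracted total RNA from LVs, sequenced 3′-seq libraries on a NextSeq500, trimmed reads, removed ribosomal and mitochondrial reads, aligned to GRCm38 with STAR 2.5.2b and counted reads per GENCODE gene with htseq-count in union mode. The deposited files hold raw counts per Ensembl gene and sample. Separately normalized files were not used, nor was any table of comparisons. The 5 tally lines that name no gene were left out of library sizes; reads aligned to several places came to 12.4% to 17.0% of all reads tallied in a file.

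Symbols were matched for 46488 of 46983 genes. EdgeR 4.0.16 (TMM, filterByExpr, quasi-likelihood test, 1 mean per group, 12 libraries, 8 residual degrees of freedom, Benjamini-Hochberg over 14706 genes) was the test, and DESeq2 1.42.0 an alternative, as were size factors, filters, fits of only the groups compared, and leaving out each animal. The scripts were tested on simulated data. The biological coefficient of variation was 13.7%. Each SE is the fold change divided by the square root of edgeR's F. Correlations used log2(CPM + 0.5).

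The genes and lists were chosen with earlier results of these data known. Genes named are the 8 members, other oxidase genes (1 of the list is not reported here), list members that passed a test or lay at the ends of their list, the 3 genes most alike to each member, and neighbours. Genes named at an unadjusted p were picked out after their values were seen. Samples are separate animals by their numbers. Promoters are RefSeq, GRCm38.p6, found for 6 of 8 genes.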

Additional observations from a re-analysis of the deposited data

How the results depend on the processing

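The fold changes of the 8 genes and the calls were scored by different rules, so their steadiness is not compared. Many of the settings leave out 1 animal and share all other libraries with the reported fit. Of 1384 fold changes recomputed, 28 moved by at least 1 SD between replicates, 0 moved by over 1.5 times, and 39 had another sign. The reported value was under 0.3 in size in each of those 39, and the recomputed one was 0.3 or more in 2, both Cybb in Wt without animal 80. The counts of samples that do not overlap were the same with DESeq2 size factors. Without a filter on low counts edgeR called 5 of the 8 genes in diabetes-exposed Hif1a+/- against Wt of non-diabetic pregnancy, 7 against Hif1a+/- of non-diabetic pregnancy, 2 against diabetic Wt and 1 in the interaction, in place of 0, where 1.64%, 2.19%, 0.812% and 0.288% of 27093 genes were called. Of the other oxidase and regulator genes it called 1, 6, 1 and 2, with 2 for each single exposure (0.476% of all genes for diabetic pregnancy, 0.122% for the genotype). The cause was not tested. DESeq2 gave 2, 4 and 2 of the 8 genes in these 3 comparisons and 2 other genes between the Hif1a+/- groups. A fit of the Hif1a+/- groups alone called 1 of the 8 (Duox1) and 3 others (0.708% of all genes), on fewer samples.

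Leaving out 1 animal in turn, with edgeR or with DESeq2 (the latter added after seeing the data), the 8 genes gave 0 to 2 calls against Wt of non-diabetic pregnancy, 0 to 6 against Hif1a+/- of non-diabetic pregnancy, 0 to 4 against diabetic Wt and 0 to 1 in the interaction. The other genes gave 0 to 2, 0 to 1, 0 to 4, 0 to 2 and 0 to 2 for the genotype alone, these 3 comparisons and the interaction. With DESeq2 the 4 calls between the Hif1a+/- groups became 1 (Duox1) without animal 77 or 32, 2 without 14 or 42 and 6 without 80. Without animal 66 they became 3 (Duox1, Duoxa1 and Cyba). Cyba, not called on all animals, was called there in 6 of 12 leave-outs, as were Ncf1 and Ncf4. The 2 calls against Wt of non-diabetic pregnancy became 0 without 77 and 1 (Duoxa1) without 25 or 42. The 2 against diabetic Wt became 0 without 50, 4 without 80 and 1 (Duox1) without any of 7 other animals (7, 14, 32, 42, 44, 66, 77). Duox1 was called between the Hif1a+/- groups in 12 of 12 leave-outs and Duoxa1 in 8, and against diabetic Wt in 11 and 4. Without animal 72 DESeq2 called the same 4, 2 and 2 genes and also Duox1 in the interaction, and edgeR called 2 (Duox1 and Duoxa1; 0.253% of all genes) between the Hif1a+/- groups.

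No paired analysis was possible because the animal numbers differ between groups and the sample labels give no litter. Each SE and p treats the animals as independent, although diabetes was given to the dam. The study describes the LVs of a group as coming from different litters. Whether animals of different groups were littermates could not be told. With 3 animals a group and 17 to 157 counts for Duoxa1 and Duox1, depth and number both limit precision. Groups of 3 were not searched for single samples that stand apart.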

Other observations

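Enzymes that remove superoxide and hydrogen peroxide were described over the same libraries from a list of 14 genes, all tested. The list also holds Txnip, which is not itself such an enzyme. EdgeR called 0 of 14 at an adjusted p under 0.1 in any comparison, with 4 of 14 at an unadjusted p under 0.05 between the Hif1a+/- groups (Cat, Gpx1, Sod3, Txnip; 12.0% of all genes). DESeq2 called 1 there (1.44% of the genes it tested) and 1 against diabetic Wt (0.155%), both times Txnip, the inhibitor of thioredoxin. Txnip averaged 304.0 ± 99.3 and 204 ± 15.3 CPM (SD, n = 3) in Wt of non-diabetic and diabetic pregnancy, and 214 ± 26.5 and 373 ± 94.0 CPM in the Hif1a+/- groups in the same order. Its log2 difference between pregnancies was -0.58 ± 0.21 (SE) in Wt and 0.80 ± 0.21 in Hif1a+/-, the samples overlapped in neither genotype, and the difference of these was 1.38 ± 0.30. Diabetes-exposed LVs were thus lower in Wt and higher in Hif1a+/-, an interaction that neither tool called at an adjusted p under 0.1. Cat, catalase, was at the other end of the list with -0.27 ± 0.08 between the Hif1a+/- groups, where the samples did not overlap. The median of the list was 0.13 between the Hif1a+/- groups and 0.07 between the Wt groups, beside 0.73 and 0.08 for the 8 oxidase genes.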
